A study of Mus musculus with 10 samples.

Results

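The synaptonemal complex is the protein zipper that joins homologous chromosomes in meiotic prophase, and meiotic cohesin is the ring that holds sister chromatids together along its axes. Messenger RNAs for 10 of their mouse components were examined: *Sycp1*, *Sycp2*, *Sycp3*, *Syce1*, *Syce2*, *Syce3*, *Rec8*, *Smc1b*, *Stag3* and *Rad21l*. They were chosen by name, as the structural genes of both assemblies, out of 55421 Ensembl genes in the count files, and all 10 were found. The question was whether their levels differ between testes with and without the RNA helicase MOV10.

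RNA-seq libraries came from testes of mice at postnatal day 21 (P21), with 3 wild type libraries (replicates 1, 2 and 3) and 3 *Mov10*-/- libraries (replicates 2, 3 and 4), each from 1 pair of testes. *Mov10*-/- is a global knockout made by recombining a floxed allele with *Actb*-Cre, which acts in all tissues. It lacks exons 8 to 14, which encode the first helicase domain, and it is kept on a mixed 129, C57BL/6 and FVB background. Another 4 libraries hold RNA crosslinked to MOV10 in wild type P21 testes (CLIP-seq), described after the comparison of genotypes.

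In synapsed chromosomes, axial elements containing SYCP2 and SYCP3 become the lateral elements of the complex. SYCP1 forms the transverse filaments that span the gap, and SYCE1, SYCE2 and SYCE3 belong to the central element where those filaments meet. The axes are built on cohesin rings that carry meiosis-specific subunits: SMC1B in place of SMC1A, STAG3 in place of STAG1 or STAG2, and REC8 or RAD21L in place of the kleisin RAD21. In males these genes are switched on at meiotic entry and are used in spermatocytes, which are abundant in the testis at P21.

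No difference between genotypes passed the test for any of these mRNAs, and the fitted fold changes lay between 0.898 (*Rec8*) and 1.18 (*Syce2*). The genotype effect was estimated with edgeR (quasi-likelihood test, p-values adjusted by Benjamini-Hochberg) over 20240 genes with more than 1 RPM (1 read in 1000000 reads on genes) in at least 3 of the 6 libraries. A gene was called when it changed more than 2-fold with an adjusted p below 0.05. All 10 members passed the filter on low values, and 0 were called. Across all genes tested, 0.00494% were called lower in *Mov10*-/- (1 gene, *Mov10* itself) and 0% were called higher. At an unadjusted p under 0.05 the test gave 0 members in either direction, against 11.9% of all genes lower and 5.58% higher. DESeq2 also called 0 members, while it called 4.88% of all genes lower and 0.252% higher. The members had log2 fold changes (*Mov10*-/- over wild type) from -0.16 to 0.24, with 6 positive, 4 negative and a median of 0.03, which is also the median of all genes tested. Of all genes tested, 50.2% had a larger absolute log2 fold change than the largest of the members.

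The width of the intervals shows what these libraries could have missed. For all 10 members the 95% interval of the fold change lay inside 2-fold in either direction, and for 8 it lay inside 1.5-fold. The exceptions to the narrower bound were *Rec8*, with an interval of 0.588 to 1.37-fold, and *Rad21l*, with 0.782 to 1.6-fold. The members were represented by 97 to 2895 reads per library. Together they took 1297, 1426 and 1291 CPM (reads per 1000000 reads on genes, scaled by edgeR's TMM factors) in wild type replicates 1, 2 and 3. The same sum was 1267, 1411 and 1357 CPM in *Mov10*-/- replicates 2, 3 and 4, so the genotypes overlapped. It made up 0.127% to 0.143% of the normalised library.

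**Figure D1:**
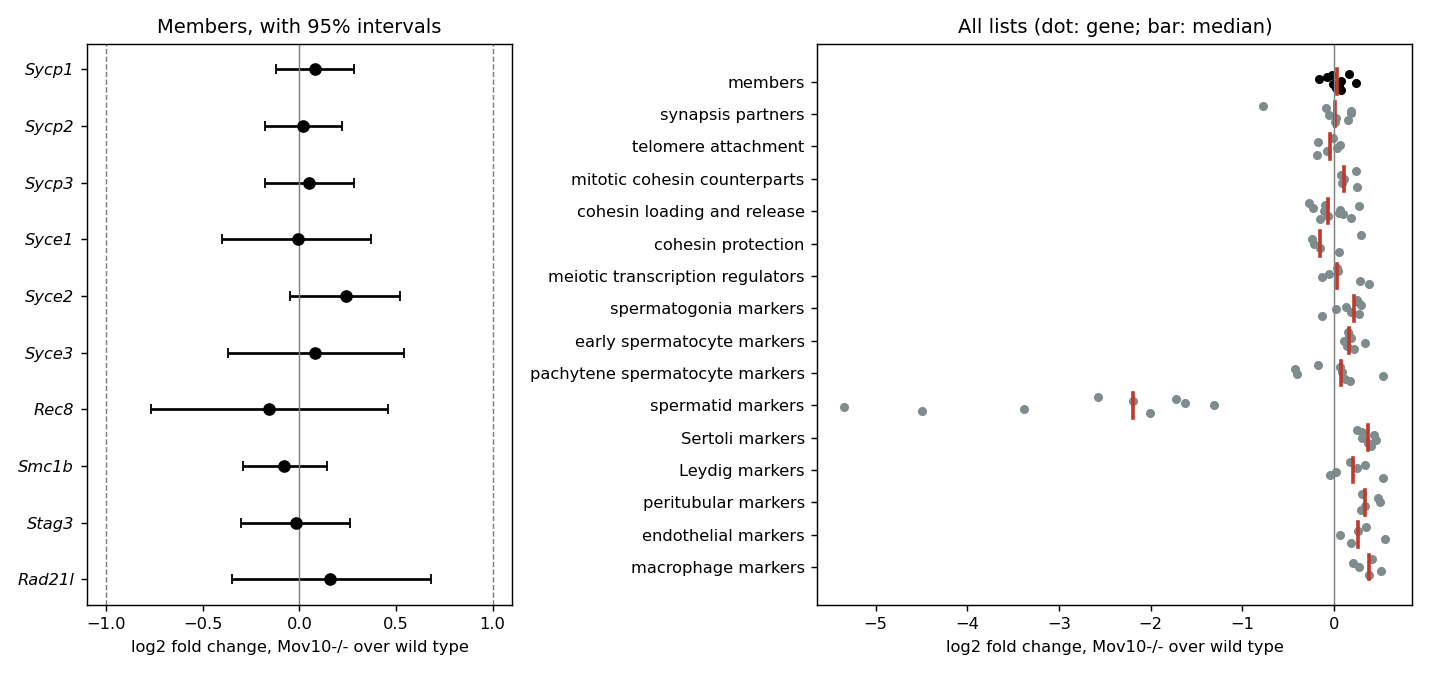
Left, log2 fold change of each member, *Mov10*-/- over wild type, with its 95% interval from edgeR's quasi-likelihood fit; dashed lines mark a 2-fold change. Right, the same log2 fold changes for the genes of each list (dots) with the list's median (bar); members lie between -0.16 and 0.24, and spermatid markers have a median of -2.19.

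The libraries held 5083407 to 9230540 reads on genes, so that 3 reads stood for 0.325 to 0.59 RPM. *Mov10* was at 114, 96.8 and 120 CPM in wild type and at 29.2, 26.7 and 26.8 CPM in *Mov10*-/-, a log2 fold change of -2.00 (SE 0.12, adjusted p = 0.00552, edgeR), with no overlap between genotypes. *Mov10*-/- replicate 3 stood apart as the shallowest library, with 57.2% of its reads unaligned against 26.5% to 35.9% in the others.

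Markers of round and later spermatids were lower in the knockout libraries. Their sum over 10 genes was 254, 654 and 167 CPM in wild type and 46.5, 145 and 69.5 CPM in *Mov10*-/-. Of 9 that were tested (*Prm1*, the sperm protamine, was not), 9 had an unadjusted p under 0.05 and lower levels, against 11.9% of all genes. On the lower side 6 did not overlap between genotypes, against 14.1% of all genes. DESeq2 called 9, against 4.88% of all genes called lower. edgeR's quasi-likelihood test called 0 (smallest adjusted p = 0.15). The marker list was chosen with earlier results of these data known, so these counts are a description only. *Izumo1*, which encodes the sperm protein that binds the egg, had a log2 fold change of -2.57 (adjusted p = 0.15, edgeR). *Tnp2* had -5.34 (adjusted p = 0.15), with 0 to 7 reads per knockout library, and *Tssk1*, a kinase of spermatids, had -1.62 (adjusted p = 0.156). Sertoli markers summed to 365 to 498 CPM in wild type and 518 to 592 CPM in *Mov10*-/-. Of 7 tested (*Rhox5* was not), 3 were higher at an unadjusted p under 0.05, against 5.58% of all genes. Sums over peritubular markers (340 to 402 against 414 to 542 CPM) and endothelial markers (97.2 to 122 against 123 to 148 CPM) were likewise higher in each knockout library. In each of these lists, 1 of 5 genes was higher at an unadjusted p under 0.05. On the higher side 3 of 7 Sertoli, 4 of 5 peritubular and 1 of 5 endothelial genes did not overlap, against 11.9% of all genes. DESeq2 and edgeR's quasi-likelihood test called 0 genes of these 3 lists (smallest adjusted p in edgeR 0.206, 0.273 and 0.167). Leydig markers (318 to 574 against 423 to 620 CPM; *Insl3* was not tested) and macrophage markers (179 to 303 against 234 to 345 CPM) overlapped. No listed marker was at 0 reads in all 6 libraries, but *Rhox5* had only 1 read, in *Mov10*-/- replicate 4, and *Insl3* had 1 to 6 reads per library. In whole testis, fewer cells of a type and less RNA per cell cannot be told apart, and the part of cell composition in the values of the members was not tested.

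SYCP1 is the transverse filament protein. *Sycp1* (ENSMUSG00000027855, chr3:102818499-102936100, minus strand, GRCm38) had 187, 172 and 185 CPM in wild type and 193, 184 and 198 CPM in *Mov10*-/-. The highest library was a knockout and the lowest a wild type, but the groups overlapped. The log2 fold change was 0.08 (SE 0.09, 95% interval -0.12 to 0.28, adjusted p = 0.666, edgeR). *Sycp1* lies 1.86 Mb from *Mov10* on chromosome 3, so on a mixed background an effect of the knockout and one of linked strain sequence cannot be told apart for this gene.

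SYCP2 and SYCP3 form the axial and lateral elements and bind each other. *Sycp2* (ENSMUSG00000060445, chr2:178345293-178407685, minus strand) was the most read of the members, with 307, 313 and 311 CPM in wild type and 295, 329 and 321 CPM in *Mov10*-/-. Its wild type libraries were the tightest of any member, with a coefficient of variation (CV) of 0.968%, and the knockout libraries straddled them. The log2 fold change was 0.02 (SE 0.09, adjusted p = 0.918). *Sycp3* (ENSMUSG00000020059, chr10:88459569-88473236, plus strand) had 77.5, 71.2 and 71.4 CPM in wild type and 77.4, 71.3 and 78.3 CPM in *Mov10*-/-. In each genotype at least 1 library stood near 71 and at least 1 near 77, and the log2 fold change was 0.05 (SE 0.10, adjusted p = 0.837). Of the exonic bases of *Sycp3*, 660 (52.2%) also lie in exons of *Chpt1* on the opposite strand, and the strand setting of the counting is not given in the sources used here. *Chpt1*, which encodes a choline phosphotransferase, had a log2 fold change of -0.02 (SE 0.14, adjusted p = 0.945), and how reads were shared between both genes is uncertain.

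The 3 central element genes did not share 1 pattern over the libraries. *Syce1* (ENSMUSG00000025480, chr7:140777229-140787852, minus strand) had 110, 134 and 106 CPM in wild type and 94.3, 142 and 111 CPM in *Mov10*-/-. Both extremes were knockout libraries, and the log2 fold change was -0.01 (SE 0.17, adjusted p = 0.973). *Syce3* (ENSMUSG00000078938, chr15:89390174-89410503, minus strand), the smallest transcript of the set, had 21.4, 25.3 and 22.7 CPM in wild type and 21, 28.8 and 23.9 CPM in *Mov10*-/-. Again the lowest and the highest library were both knockouts, with a log2 fold change of 0.08 (SE 0.20, adjusted p = 0.849).

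*Syce2* (ENSMUSG00000003824, chr8:84872111-84888221, plus strand) was the member with the largest positive change and the one whose genotypes did not overlap. It had 46.3, 44 and 45 CPM in wild type (45.1 ± 1.16, SD, n = 3) and 50.9, 59 and 49.7 CPM in *Mov10*-/- (53.2 ± 5.05, SD, n = 3). Each knockout library stood above each wild type library, and *Mov10*-/- replicate 3 was the highest. The fold change was 1.18, or 0.24 on the log2 scale (SE 0.12, 95% interval -0.05 to 0.52), with an unadjusted p of 0.0936 and an adjusted p of 0.369 in edgeR's quasi-likelihood test. Such an order, with every *Mov10*-/- library above every wild type library, was seen in 11.9% of all genes tested, so 1 of 10 members is near the background. The reverse order was seen in 0 members and in 14.1% of all genes.

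**Figure D2:**
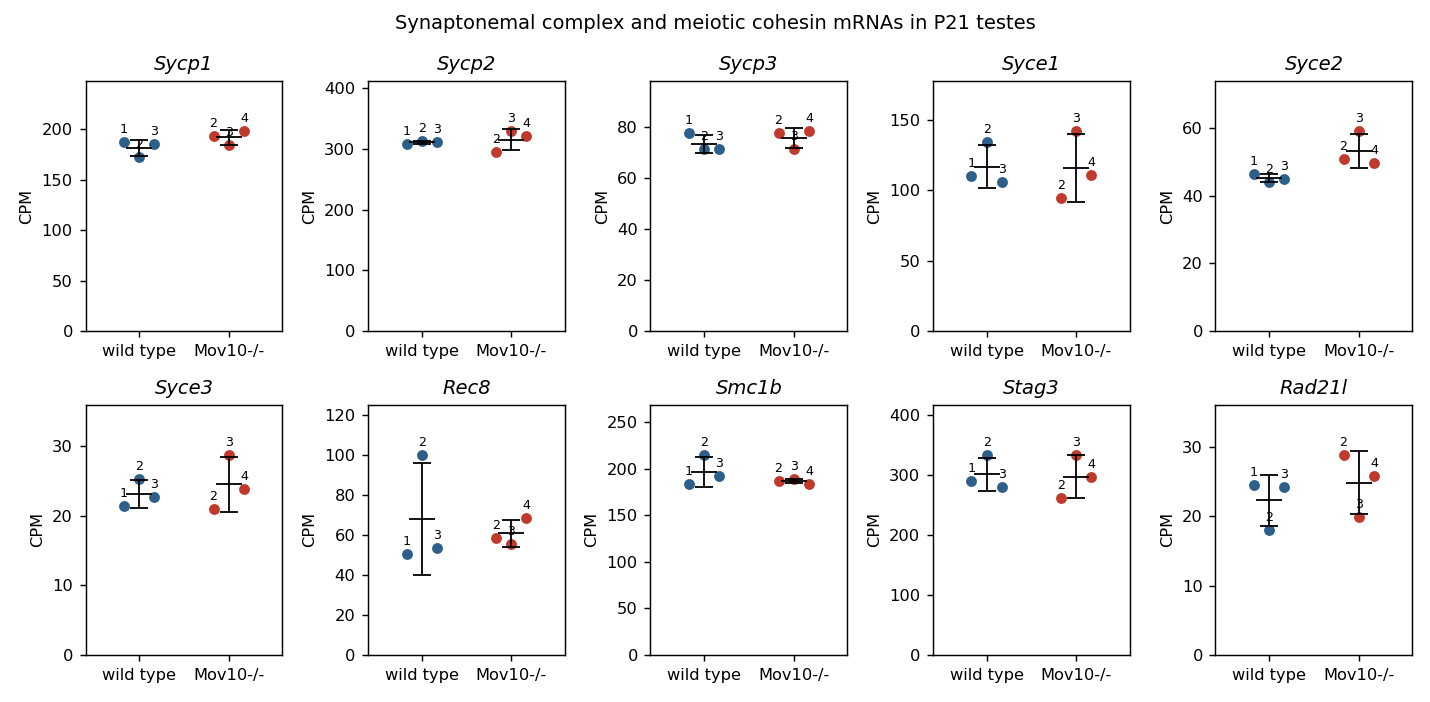
Normalised level (CPM, linear axes from 0) of each member in each RNA-seq library; points carry the replicate number, the long bar is the mean and the whiskers are 1 SD (n = 3 for each genotype). The genotypes overlap for 9 members, *Syce2* is the exception, and *Rec8* has 1 wild type library at 100 CPM.

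Among the cohesin subunits, STAG3 and SMC1B are shared by complexes with either meiotic kleisin. *Stag3* (ENSMUSG00000036928, chr5:138280240-138312393, plus strand) had 289, 332 and 280 CPM in wild type and 261, 333 and 296 CPM in *Mov10*-/-. Wild type replicate 2 and *Mov10*-/- replicate 3 were nearly equal at the top, and the log2 fold change was -0.02 (SE 0.12, adjusted p = 0.944). *Smc1b* (ENSMUSG00000022432, chr15:85064689-85131964, minus strand) had 184, 215 and 192 CPM in wild type and 187, 189 and 184 CPM in *Mov10*-/-. Its knockout libraries agreed within a CV of 1.27%, the tightest of the members in that genotype, and the log2 fold change was -0.08 (SE 0.09, 95% interval -0.29 to 0.14, adjusted p = 0.701).

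REC8 and RAD21L are the kleisins, which close the cohesin ring. REC8 is the subunit cleaved at the meiotic divisions, and RAD21L acts in early prophase. *Rec8* (ENSMUSG00000002324, chr14:55618037-55625395, plus strand) had 50.2, 100 and 53.2 CPM in wild type and 58.6, 55.3 and 68.4 CPM in *Mov10*-/-. Wild type replicate 2 stood far above the other 5 libraries, which gave a CV of 41.5%, the highest of the members. The log2 fold change was -0.16 (SE 0.26, 95% interval -0.77 to 0.46, adjusted p = 0.785). Without wild type replicate 2 it was 0.24, so the sign of the *Rec8* estimate rested on that library.

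*Rad21l* (ENSMUSG00000074704, chr2:151645404-151668533, minus strand) had 24.6, 18.1 and 24.2 CPM in wild type and 28.9, 19.9 and 25.8 CPM in *Mov10*-/-. Wild type replicate 2 was its lowest library, the one in which *Rec8* was highest. The log2 fold change was 0.16 (SE 0.22, 95% interval -0.35 to 0.68, adjusted p = 0.735).

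Levels can be ranked between genes after division by exonic length. In wild type, *Syce1* was the highest at 79.9 CPM per kilobase of exon (CPM/kb), followed by *Sycp3* at 58.1 CPM/kb. *Stag3* (52.4 CPM/kb), *Sycp2* (52.1 CPM/kb), *Sycp1* (51 CPM/kb) and *Smc1b* (48.7 CPM/kb) formed a middle group in which each overlapped the next over its 3 libraries. *Syce3* stood at 41.9 CPM/kb, *Rec8* at 23.1 CPM/kb, *Syce2* at 22.9 CPM/kb and *Rad21l* last at 13.4 CPM/kb.

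Most neighbours in this order did not differ beyond their spread. The ranges of *Syce1* and *Sycp3*, of *Syce3* and *Rec8*, and of *Syce2* and *Rad21l* were apart in both genotypes, and each of these pairs kept its order in 6 of 6 libraries. *Sycp1* and *Smc1b* were apart in *Mov10*-/- libraries only. In *Mov10*-/- the order ran *Syce1*, *Sycp3*, *Sycp1*, *Sycp2*, *Stag3*, *Smc1b*, *Syce3*, *Syce2*, *Rec8* and *Rad21l*, from 79.4 down to 15 CPM/kb. Components of 1 structure thus differed in mRNA level per length, with *Syce1* above *Syce2* in the central element and *Rec8* above *Rad21l* among kleisins in wild type means, and the rank of *Sycp3* carries the uncertainty from *Chpt1*.

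**Figure D3:**
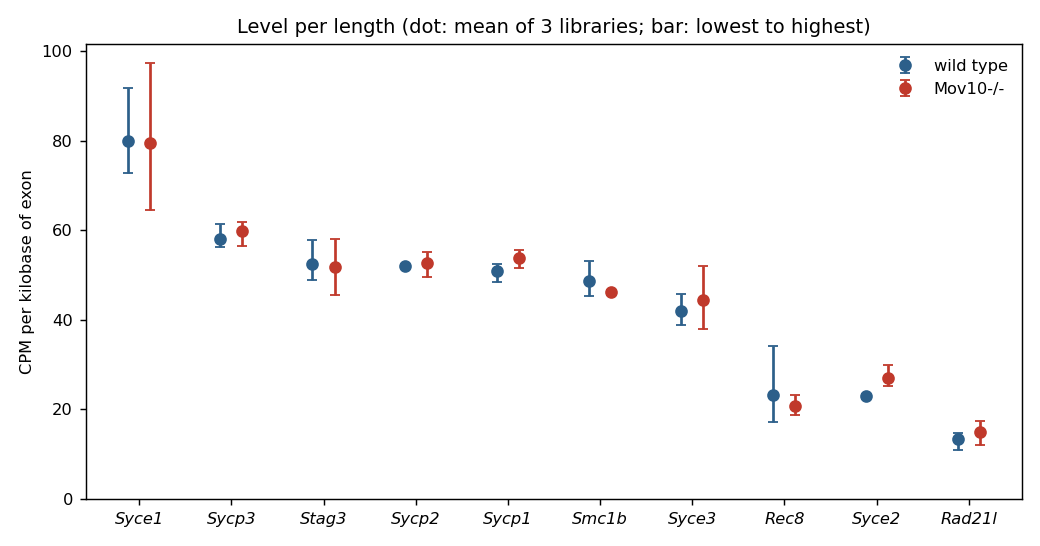
Level of each member per length (CPM per kilobase of exon, linear axis from 0) in wild type and *Mov10*-/-; dots are means of 3 libraries and bars run from the lowest to the highest library. *Syce1* is highest and *Rad21l* lowest in both genotypes, and each gene's bars overlap between genotypes except those of *Syce2*.

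Spread between libraries of 1 genotype was summarised as the CV. The median CV of the members was 8.46% in wild type and 10.4% in *Mov10*-/-, against 17.5% and 17.2% for all genes tested. Over the 10474 genes at least as abundant as the lowest member, the median CV was 11.3% in wild type and 11.6% in *Mov10*-/-.

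Members went in opposite directions in the same libraries, and the share of all genes with these extremes was not counted. *Sycp2*, *Syce1*, *Syce3*, *Smc1b* and *Stag3* (5 members) were each highest in wild type replicate 2 within that genotype and in *Mov10*-/- replicate 3 within the other. *Sycp1*, *Sycp3* and *Rad21l* (3 members) were lowest in the same libraries. In both sets some margins were small. Examples are 313 against 311 CPM for *Sycp2* in wild type, 189 against 187 CPM for *Smc1b* in *Mov10*-/- and 71.2 against 71.4 CPM for *Sycp3* in wild type. Pachytene spermatocyte markers summed to 1128, 1379 and 1134 CPM in wild type and 970, 1531 and 1150 CPM in *Mov10*-/-, and so had the same highest library in each genotype. Early spermatocyte markers summed to 434, 354 and 424 CPM in wild type and 443, 467 and 471 CPM in *Mov10*-/-, so that each knockout library stood above each wild type library and wild type replicate 2 was the lowest. Spermatogonia markers summed to 431, 300 and 391 CPM in wild type and 458, 399 and 405 CPM in *Mov10*-/-, again lowest in wild type replicate 2. Wild type replicate 2, in which *Rec8* was at 100 CPM, also held the most spermatid signal. The part of these marker sums in the levels of the members was not tested.

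**Figure D4:**
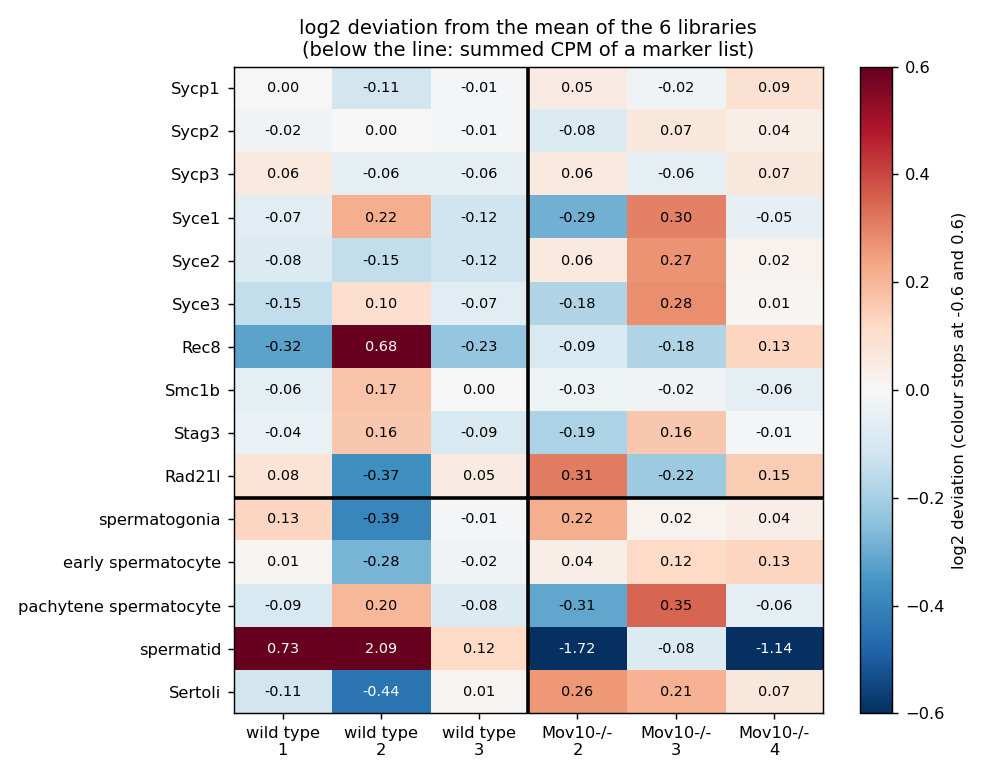
Deviation of each library from the mean of the 6 libraries on the log2 scale, for the members (above the line) and for the summed CPM of marker lists (below it); the vertical line parts wild type from *Mov10*-/- and colours stop at -0.6 and 0.6. *Syce1*, *Stag3* and pachytene markers are high in wild type replicate 2 and *Mov10*-/- replicate 3, and *Rec8* is high in wild type replicate 2.

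Each meiotic cohesin subunit was also set against its counterpart in mitotic cohesin within the same library, which needs no scaling between libraries. The 6 ratios of reads per kilobase were compared by two-sided exact permutation tests on the log2 ratio, in which 3 libraries against 3 cannot give a p below 0.1. All 6 overlapped between genotypes, with p adjusted over the 6 ratios of 0.9 throughout. *Smc1b* exceeded *Smc1a* 2.95, 5.76 and 3.55 times in wild type and 2.75, 3.55 and 3.03 times in *Mov10*-/- (exact permutation p = 0.4). *Stag3* to the sum of *Stag1* and *Stag2* was 1.68, 2.46 and 1.85 in wild type and 1.35, 2.27 and 1.73 in *Mov10*-/- (exact permutation p = 0.5). In every library of whole testis, mRNA of the meiotic form of both subunits thus exceeded that of the mitotic form per kilobase of exon. For *Stag3* this depends on the division by exonic length (5733 bases, against 11781 for *Stag1* and 8273 for *Stag2*).

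The meiotic kleisins were first set against *Rad21* singly. *Rec8* to *Rad21* was 0.489, 1.13 and 0.563 in wild type and 0.529, 0.562 and 0.684 in *Mov10*-/- (exact permutation p = 0.8), so that *Rec8* was above *Rad21* in 1 of 6 libraries. *Rad21l* to *Rad21* was 0.413 ± 0.0468 in wild type and 0.426 ± 0.0582 in *Mov10*-/- (SD, n = 3 each, exact permutation p = 0.6). Both meiotic kleisins together, a sum added after seeing the data and not tested, came to 0.914, 1.5 and 1.02 times *Rad21* in wild type and 0.991, 0.921 and 1.14 times in *Mov10*-/-, above 1 in 3 of 6 libraries. The ratios to *Rad21* depend on the division by exonic length (2935 bases for *Rec8*, 1659 for *Rad21l* and 4232 for *Rad21*). Without it, wild type means were 67.9 CPM for *Rec8*, 22.3 CPM for *Rad21l* and 137 CPM for *Rad21*. *Rec8* to *Rad21l* was 1.15, 3.14 and 1.24 in wild type and 1.15, 1.57 and 1.5 in *Mov10*-/- (exact permutation p = 0.8), above 1 in 6 of 6 libraries. *Sycp3* to *Sycp2*, the partners of the axial element, was 1.12 ± 0.0645 in wild type and 1.14 ± 0.108 in *Mov10*-/- (SD, n = 3 each, exact permutation p = 0.9). That ratio carries the uncertainty from *Chpt1*. Its place above 1 depends on the division by exonic length (1264 bases for *Sycp3* against 5967 for *Sycp2*), as wild type means were 73.4 against 311 CPM.

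**Figure D5:**
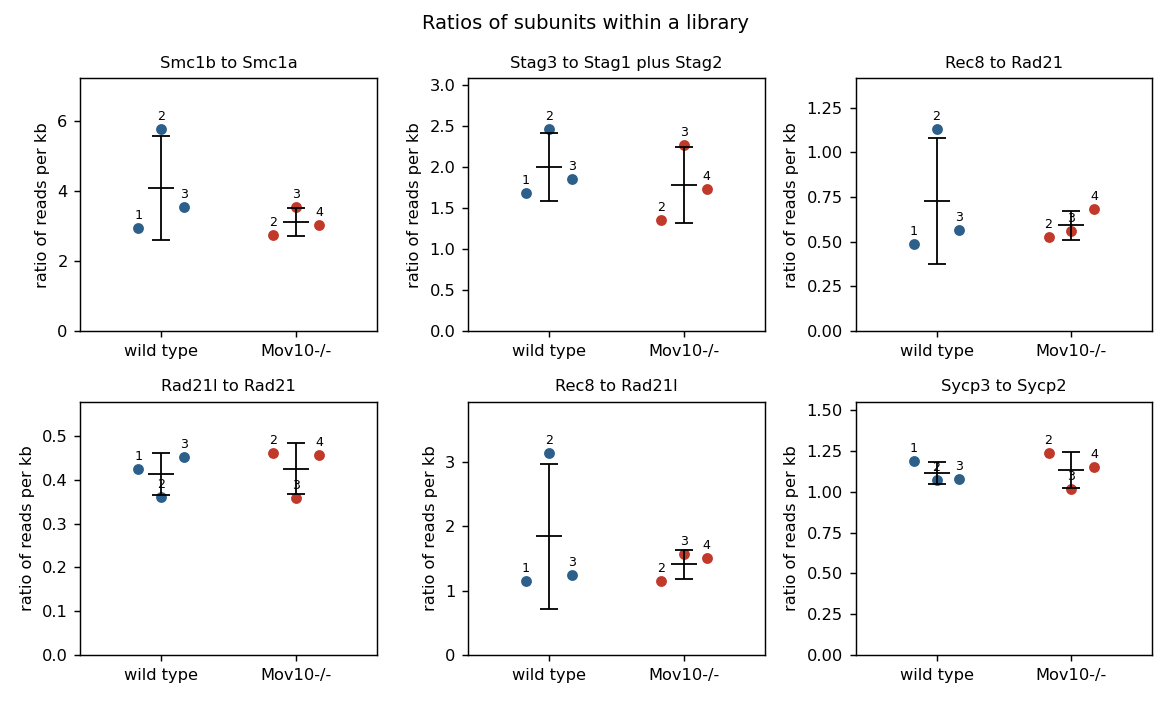
Ratio of reads per kilobase between subunits within each RNA-seq library (linear axes from 0); points carry the replicate number, the long bar is the mean and the whiskers are 1 SD (n = 3 for each genotype). All 6 ratios overlap between genotypes, and wild type replicate 2 is the highest library for *Smc1b* to *Smc1a*, *Stag3* to *Stag1* plus *Stag2*, *Rec8* to *Rad21* and *Rec8* to *Rad21l*.

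Other genes that work with these structures were taken from 6 lists of 42 genes, of which 41 were tested (*Majin*, which tethers telomeres to the nuclear envelope, was too low). edgeR's quasi-likelihood test and DESeq2 each called 0. At an unadjusted p under 0.05, 0 were lower and 2 were higher, against 11.9% and 5.58% of all genes tested. Between genotypes 2 did not overlap on the lower side and 5 on the higher side, against 14.1% and 11.9% of all genes. The median log2 fold change was 0.03 for the members and for meiotic transcription regulators, 0.01 for synapsis partners and -0.04 for telomere attachment. It was 0.11 for mitotic cohesin counterparts, -0.07 for cohesin loading and release and -0.15 for cohesin protection.

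The 2 genes with an unadjusted p under 0.05 were *Stra8* and *Ppp2r1a*. *Stra8*, the retinoic acid responsive gene that starts the meiotic programme, was at 48.5 ± 6.79 CPM in wild type and 63 ± 5.07 CPM in *Mov10*-/- (SD, n = 3 each), with a log2 fold change of 0.38 (adjusted p = 0.239, edgeR). *Meiosin*, its partner, had a log2 fold change of 0.28 (adjusted p = 0.331), and *Mybl1*, the transcription factor of pachytene spermatocytes, had -0.13 (adjusted p = 0.514). *Ppp2r1a*, a scaffold subunit of the phosphatase that shields centromeric cohesin, had a log2 fold change of 0.29 (adjusted p = 0.215), while *Sgo2a*, the shugoshin that recruits it, had -0.15 (adjusted p = 0.501) and *Meikin*, a kinetochore protein of the first meiotic division, had -0.22 (adjusted p = 0.57).

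The remaining lists are described by their genes with the smallest unadjusted p. *Mau2*, which loads cohesin with NIPBL, had a log2 fold change of 0.19 (adjusted p = 0.362), *Cdca5* (sororin) had -0.23 (adjusted p = 0.393) and *Pttg1* (securin) had -0.27 (adjusted p = 0.468). *Terb1* (-0.19), *Spdya* (-0.18) and *Terb2* (-0.08), which act where telomeres join the nuclear envelope, had adjusted p values of 0.422, 0.46 and 0.848. Among synapsis partners, *Sycp2l*, the paralog of *Sycp2* known from oocytes, was at 1.2 ± 0.296 CPM in wild type and 0.674 ± 0.295 CPM in *Mov10*-/- (log2 fold change -0.77, adjusted p = 0.433, edgeR). *Fkbp6* and *Trip13* had 0.18 and 0.19 (adjusted p = 0.466 and 0.542), and the mitotic counterparts *Stag2*, *Smc1a* and *Rad21* had 0.24, 0.25 and 0.11 (adjusted p = 0.533, 0.541 and 0.577).

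The genes whose levels over the 6 libraries were most like the mean profile of the members were *Plppr2* (Pearson r = 0.975), *Gm2237* (r = 0.951), *Lrrc41* (r = 0.95), *Bpifb5* (r = 0.95) and *Eps8l2* (r = 0.949), out of 15721 protein-coding genes. That profile itself spanned only -0.06 to 0.06 on the log2 scale. It averages members that opposed each other, with r from 0.99 (*Syce1* with *Stag3*) to -0.935 (*Stag3* with *Rad21l*). The 6 points also share their library scaling, so the likeness is a description and does not extend to each member.

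Promoter sequences, which the choice of genes did not use, were available from RefSeq (GRCm38.p6) as 12 start sites of the 10 members, each from 250 bases upstream to 50 bases downstream. The member promoters had a median of 16.5 CpG and 59.1% G plus C per 300 bases, against 7 CpG and 52.7% over 32851 promoters. The promoter of *Rad21l*, the lowest of the members per length, had the fewest with 2 CpG and 29% G plus C, and 1 of the *Syce3* promoters had 5 CpG at 55.7% G plus C. Upstream sequences of 3 members are printed 5′ to 3′ on the strand of the gene, to show the difference between promoters with the E-box CACGTG (capitals mark it) and the AT-rich one of *Rad21l*. They lie at chr3:102936101-102936350 (minus strand) for *Sycp1*, chr10:88459337-88459586 (plus strand) for *Sycp3* and chr2:151668534-151668783 (minus strand) for *Rad21l*.
Sycp1: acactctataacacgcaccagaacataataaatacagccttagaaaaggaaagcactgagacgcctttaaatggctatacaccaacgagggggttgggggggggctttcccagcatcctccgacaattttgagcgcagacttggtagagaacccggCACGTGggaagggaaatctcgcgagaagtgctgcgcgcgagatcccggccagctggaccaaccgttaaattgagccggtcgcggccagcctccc
Sycp3: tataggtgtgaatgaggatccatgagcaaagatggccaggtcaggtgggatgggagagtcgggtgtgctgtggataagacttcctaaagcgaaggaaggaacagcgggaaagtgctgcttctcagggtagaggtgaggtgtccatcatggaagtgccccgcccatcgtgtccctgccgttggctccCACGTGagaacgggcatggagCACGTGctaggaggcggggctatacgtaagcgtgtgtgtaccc
Rad21l: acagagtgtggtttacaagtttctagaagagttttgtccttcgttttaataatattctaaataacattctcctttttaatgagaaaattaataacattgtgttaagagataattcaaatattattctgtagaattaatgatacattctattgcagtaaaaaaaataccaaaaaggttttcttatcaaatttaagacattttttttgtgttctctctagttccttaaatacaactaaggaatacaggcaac

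Letters bound by 4 regulators known at meiotic genes were searched on both strands of the 300 bases. The E-box CACGTG, read by MGA with MAX in a Polycomb complex that represses germline genes, was found for 4 members (*Sycp1*, *Sycp3*, *Syce2* and *Stag3*), in 4 of 12 promoters, against 7.15% of all promoters. *Sycp3* held 2 copies of it. The STRA8 letters CNCCTCAG were found in 2 of 12 (*Sycp1* and *Syce2*) against 7.94%, the E2F letters GGCGGGA in 1 of 12 (*Syce2*) against 11.3%, and the MYB core AACNG in 12 of 12 against 80.3%. The STRA8 match of *Sycp1* lies in the 50 bases downstream of the start and so is not in the printed stretch. CACGTG contains a CpG, and the promoters compared were not matched to those of the members in CpG (median 7 against 16.5). These matches are letters in a window, and were not related to the values of the members.

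MOV10 CLIP-seq gave little signal on the members. *Sycp1* had 2, 1, 1 and 0 reads in replicates 1, 2, 3 and 5. *Sycp2* had 1, 0, 2 and 0 reads, and *Stag3* had 0, 0, 0 and 2. The other 7 members had 0 reads in all 4 libraries.

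The depth of CLIP-seq sets what can be read from this. Of all reads in these 4 libraries, 99.5% to 99.6% were listed as not aligned. Of those placed on a gene or in no gene, 82.2% to 90.9% lay in no gene. The cause of these losses was not tested. The 4 libraries held 3404 to 4934 reads on genes, and the first 3 replicates (1, 2 and 3) showed smaller differences than sampling noise gives (chi-square over degrees of freedom of 0.219 to 0.237 across genes, against 1.63 to 1.93 for each against replicate 5), so they count as 1 sample. The members drew 3, 1, 3 and 2 reads in replicates 1, 2, 3 and 5, with 95% exact Poisson intervals of 0.619 to 8.77, 0.0253 to 5.57, 0.619 to 8.77 and 0.242 to 7.22 that cover counting error only. At the share that the members take of wild type RNA-seq reads (0.133%), the same libraries would hold 5.24, 4.55, 4.52 and 6.55 reads. Each observed count was below its value at the RNA share, and each of those values lay inside the interval of its own library. In a comparison added after seeing the data, 1 of the 3 agreeing libraries was summed with replicate 5. Replicates 1 and 5 gave 5 reads (interval 1.62 to 11.7) against 11.8 at the RNA share, replicates 2 and 5 gave 3 (0.619 to 8.77) against 11.1, and replicates 3 and 5 gave 5 (1.62 to 11.7) against 11.1. The RNA share thus lay above the interval in 2 of these 3 sums, and whether MOV10 crosslinked to these mRNAs less than to others of their level was not settled at this depth.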

How the data were processed

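The authors deposited raw read counts per Ensembl gene for each library, as whole numbers with htseq-count totals for reads outside genes. Per the methods, poly(A) RNA was prepared with a stranded kit, reads were trimmed and aligned to mm10 with STAR, and counted on Ensembl v99; the strand setting is not given in the sources used here. CLIP-seq counts have the same layout, and for their reads the methods refer to earlier work. Totals that name no gene were left out.

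Gene names and positions came from GENCODE M21 (GRCm38), which matched 55240 of 55421 genes. edgeR 4.0.16 in R 4.3.3 (TMM, quasi-likelihood test, no covariate, Benjamini-Hochberg adjustment) compared 3 *Mov10*-/- with 3 wild type libraries. CPM was computed with TMM factors, and exonic length was the union of exons. Ratios were tested by exact permutation (scipy 1.17.1). DESeq2 1.42.0, limma 3.58.1 (voom), other edgeR tests, normalizations and filters, a replicate block and each replicate left out were alternatives. Besides members and *Mov10*, up to 3 genes a list were named by smallest unadjusted p, and the 5 most like the members' mean profile. Members and lists were chosen with earlier results of these data known. P-values measure the spread between single pairs of testes.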

Additional observations from a re-analysis of the deposited data

How the results depend on the processing

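0 members were called under any of 15 alternatives. Of 150 member values (log2 fold change, 10 members under 15 alternatives), 140 kept the sign, 10 changed it and 0 passed the threshold; they ran from -0.36 to 0.30 with a smallest adjusted p of 0.367. Their median, 0.03, ran from -0.03 (without *Mov10*-/- replicate 3) to 0.07 when 1 library was left out. Leaving out 1 library moved *Sycp2* between -0.01 and 0.07, *Syce1* between -0.18 and 0.12, *Syce3* between -0.04 and 0.19, *Rec8* between -0.35 and 0.24 (without wild type replicate 2) and *Stag3* between -0.11 and 0.07. The count over all genes moved much more. Called lower and higher were 1 and 0 genes in the reported fit, 3 and 3 with library totals as the scale, 5 and 5 without the filter on low counts, 988 and 51 with DESeq2, 1016 and 70 with edgeR's exact test and 1104 and 83 with its likelihood ratio test; voom called 1 higher. The lower count ran from 0 (without *Mov10*-/- replicate 3 or 4) to 1 when 1 library was left out. The cause of these changes was not tested.

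With the replicate number as a block, 148 genes were called lower and 36 higher, and *Sycp2* stood at 0.00. Only numbers 2 and 3 occur in both genotypes, so the genotype effect under the block rests on the libraries with these numbers. Deviations of same-numbered libraries correlated at -0.476 and -0.346, and those of wild type replicate 2 with *Mov10*-/- replicate 3 at 0.47. The labels do not say what a shared number stands for. Correlations of so few libraries cannot settle whether it marks a pairing. Depth limits *Rad21l* most among members (97 reads in 1 library), and CLIP-seq limits any statement on binding: the RNA share lay outside the interval of 0 of 4 single libraries, but outside that of replicate 1 with 5 (1 count) and of replicate 2 with 5 (1 count), sums added after seeing the data.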

Other observations

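The processed pseudogene *Sycp1-ps1* (chr7:18786332-18789099, plus strand, GRCm38) was looked at because it is named after *Sycp1*, and is singled out here after its values were seen. It had 151, 67 and 55 reads in wild type replicates 1, 2 and 3 and 22, 13 and 38 reads in *Mov10*-/- replicates 2, 3 and 4, or 11 ± 6.13 against 3.36 ± 1.15 CPM (SD, n = 3 each). Every knockout library lay below every wild type library, an order seen in 14.1% of all genes tested. Wild type replicate 1 was the highest at 17.8 CPM, against 9.18 and 5.91 CPM in replicates 2 and 3. The log2 fold change was -1.69 (SE 0.48), with an adjusted p of 0.162 in edgeR's quasi-likelihood test and 0.0328 in DESeq2, which called 4.88% of all genes lower. How reads were shared between this copy and *Sycp1* mRNA was not tested, and its level is uncertain.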
